A study of Mus musculus with 2 samples.

Results

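Integrins and cell adhesion molecules were followed in cultured bone marrow-derived macrophages with and without calpain-6, a member of the calpain family without the active-site cysteine that its proteolytic relatives use. The 45 genes were chosen by gene family: 23 integrin chains, 7 immunoglobulin-type adhesion molecules, a selectin with its ligand and the hyaluronan receptor (3 genes), 4 cadherins, 4 tetraspanins and 4 syndecans. They are 45 of the 20660 genes named on the array. Probes were assigned to them through RefSeq accessions. Of the 45, 36 were well above background on both arrays and are called measured, 1 was so on the Capn6-Ko array only, 6 were not on either array, and no probe was matched to Itga10 or Itgae.

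The Capn6-Ko group was a culture of marrow cells from calpain-6-deficient male mice, and the Capn6-Wt group a culture from wild-type male mice. Femoral cells were grown in 10% serum with 50 ng/mL of the macrophage growth factor M-CSF, and both cultures also held 10 ng/mL of the inflammatory cytokine TNF-α. One label places the cells at day 3, another at day 4, and 4 mice are named, pooled, without saying whether per group. The sources used here do not give strain, age or the design of the deletion. Each group was 1 array, so no test between genotypes could be run, and every difference describes these 2 RNA pools.

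Integrins are receptors made of an α and a β chain that couple the matrix, or counter-receptors on other cells, to the actin cytoskeleton. Leukocytes carry their own set, built around the β2 chain and used for adhesion to endothelium and for phagocytosis, whereas the β1 and αV chains form receptors for collagen, laminin and fibronectin in many cell types. Cadherins join like cells, tetraspanins organise integrins and other proteins in the membrane, and syndecans are heparan sulfate proteoglycans that act as co-receptors for matrix and growth factors.

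Both arrays had a similar quality. Well above background were 52.8% of 59305 spots on the Capn6-Ko array and 51.7% on the Capn6-Wt array, with a 75th percentile of the processed signal of 372 and 377. Calpain-6 itself was near the detection limit, with signals of 8.65 in Capn6-Ko and 3.93 in Capn6-Wt, neither well above background, so its single probe does not check the labels. Macrophage markers were present, all 10 with a probe. Signals below are the processed intensities of each array. A log2 difference is Capn6-Ko minus Capn6-Wt after each array was scaled to its 75th percentile. The ± is an SD taken from repeated spots of the same probes and leaves out mice, culture and labelling. A gene counts below as higher or lower by the called size where its log2 difference is at least 0.32 in that direction.

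Of the 36 measured adhesion genes, 5 were lower in Capn6-Ko by the called size, namely Cdh2, Sdc2, Itga11, Cdh11 and Itga7. That is 13.9% of the measured members, beside 5.53% of all 12875 measured genes. The immunoglobulin-type molecule Icam4 was the 1 gene higher by the called size, beside 2.64% of all genes. At 1.5-fold, Cdh2, Sdc2 and Itga11 were lower, beside 1.26% of all genes, and no member was higher, beside 0.334%. All 7 measured leukocyte integrins were slightly higher in Capn6-Ko, none by the called size, beside 47.8% of all measured genes above 0. Of these, the gene means of Itgal, Itgam and Itgb2 were within 1 SD of the spot error, though the Itgam probes disagreed in sign.

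**Figure D1:**
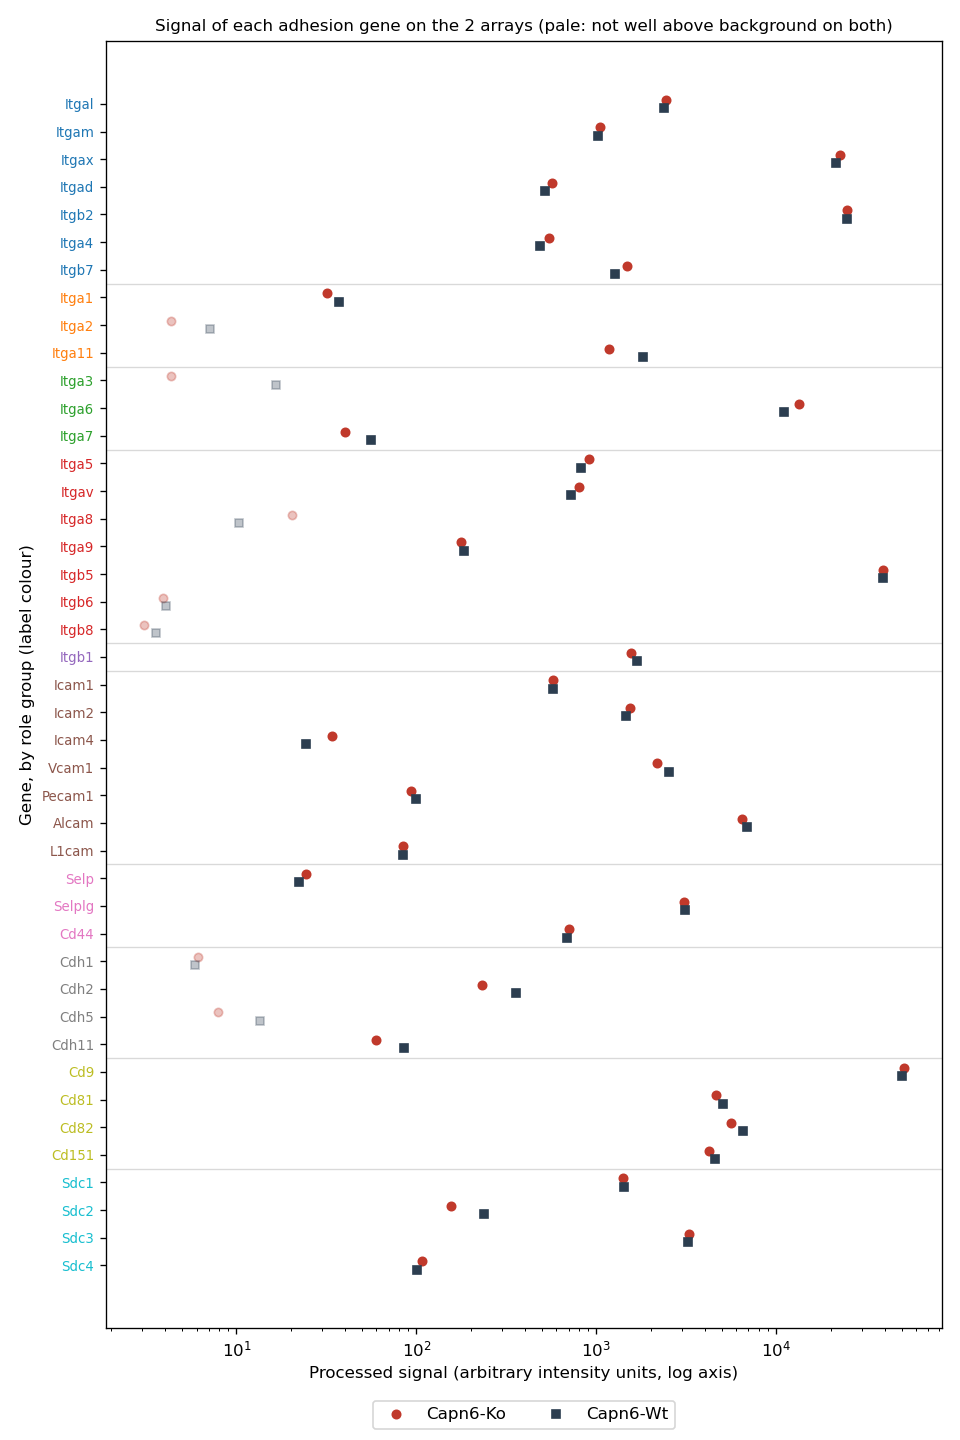
Processed signal (log axis, arbitrary intensity units) of the 43 adhesion genes with a probe, 1 row a gene, on the Capn6-Ko array (circles) and the Capn6-Wt array (squares), as geometric means over probes. Pale points were not well above background on both arrays. Only points of the same row can be compared, and in the rows of Itga11, Cdh2, Cdh11 and Sdc2 the Capn6-Ko point lies to the left.

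Leukocyte integrins were near the same level in the 2 pools, with every measured member on the higher side in Capn6-Ko, beside 47.8% of all measured genes. Their median log2 difference was 0.084, beside -0.0056 over all measured genes. Itgb2, the β2 chain that pairs with Itgal, Itgam, Itgax and Itgad, had a signal of 24822 in Capn6-Ko and 24688 in Capn6-Wt, a difference of 0.026 ± 0.083. Its partner Itgax, the CD11c chain, gave 22504 in Capn6-Ko and 21495 in Capn6-Wt (0.084 ± 0.083). Neither differed by more than about 1 SD of the spot error.

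Itgam, the CD11b chain of the phagocytic receptor Mac-1, was read by 3 probes that disagreed in sign. Their signals were 6821 in Capn6-Ko against 6292 in Capn6-Wt, 1624 against 1456, and 104 against 116, with a mean difference of 0.059 ± 0.064. In that order the probe differences were 0.13, 0.18 and -0.13. With probes above the median level only, the Itgam difference was 0.16. Itgal, the α chain of LFA-1, gave 2504 in Capn6-Ko against 2524 in Capn6-Wt with one probe and 2344 against 2229.7 with the other. Its mean was 0.048 ± 0.060, within the spot error. Itgad, a further β2 partner, had a signal of 569.6 in Capn6-Ko and 521 in Capn6-Wt, a difference of 0.15 ± 0.099.

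By gene mean, the chains that pair outside the β2 family differed most within the leukocyte group. Itgb7, which joins α4 in a receptor for gut homing, had a signal of 1486 in Capn6-Ko and 1273 in Capn6-Wt. Its difference of 0.24 ± 0.080 was the 1 value of the group beyond 2 SD of the spot error. Itga4 itself, the α chain of the VCAM-1 receptor VLA-4, gave 3932 in Capn6-Ko against 3752 in Capn6-Wt with one probe and 76.5 against 63.8 with the other, a mean of 0.18 ± 0.10. Those probes differed by 0.086 and 0.28, and the brighter one lay below Itgad, at 0.15. From the gene means, the difference of Itga4 minus that of its partner Itgb7 was -0.059.

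Promoter sequences from RefSeq (build GRCm38.p6) are shown for Itga11, the integrin with the largest difference among those measured on both arrays, and for Icam4, the 1 gene higher by the called size. Beside them stand Itgam and Itgax, leukocyte integrins that neighbour each other in the genome. Each is the 250 bases before the annotated start, on the forward strand: chr9:62677605-62677854 for Itga11, chr9:21029182-21029431 for Icam4, chr7:128062390-128062639 for Itgam and chr7:128129300-128129549 for Itgax. Capitals mark matches, on either strand, to the PU.1 core GAGGAA, the GC box GGGCGG or the AP-1 motif TGANTCA.
Itga11: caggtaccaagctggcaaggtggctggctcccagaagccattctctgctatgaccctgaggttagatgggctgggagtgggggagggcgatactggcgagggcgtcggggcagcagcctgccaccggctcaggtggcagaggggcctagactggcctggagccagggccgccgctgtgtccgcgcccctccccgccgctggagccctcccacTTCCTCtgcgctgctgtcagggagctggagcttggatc
Icam4: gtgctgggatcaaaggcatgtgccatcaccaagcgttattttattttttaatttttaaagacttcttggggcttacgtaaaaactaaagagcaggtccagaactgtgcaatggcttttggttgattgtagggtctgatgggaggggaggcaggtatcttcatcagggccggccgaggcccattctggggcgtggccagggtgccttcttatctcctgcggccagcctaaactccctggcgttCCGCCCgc
Itgam: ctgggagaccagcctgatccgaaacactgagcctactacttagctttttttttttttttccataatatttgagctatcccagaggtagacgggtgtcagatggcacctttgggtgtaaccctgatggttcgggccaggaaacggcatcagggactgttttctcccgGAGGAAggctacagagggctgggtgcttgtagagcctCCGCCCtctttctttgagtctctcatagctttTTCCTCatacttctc
Itgax: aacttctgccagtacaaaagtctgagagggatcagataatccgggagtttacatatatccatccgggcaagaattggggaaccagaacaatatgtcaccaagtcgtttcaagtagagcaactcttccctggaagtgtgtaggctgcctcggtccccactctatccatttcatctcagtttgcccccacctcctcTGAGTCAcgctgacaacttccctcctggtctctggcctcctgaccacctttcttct

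PU.1 is a transcription factor of myeloid cells. Its core motif was found in the windows of Itga11 (1 match) and Itgam (2 matches), and in 23.3% of all 32851 promoters in the table. The GC box, found in 32.7% of all promoters, matched in Icam4 and Itgam, and the AP-1 motif, found in 6.75%, in Itgax. Of the 30 members with a promoter entry, 12 held the PU.1 core in at least 1 of their windows, 17 the GC box, 2 the AP-1 motif and 3 the TEAD motif GGAATG (12.6% of all promoters). The CArG box, the binding motif of SRF, matched in 1 member, Itgb6, and in 1.47% of all promoters. The PU.1 and TEAD motifs can overlap by 4 bases. The member counts take each gene over all its windows, while the percentages are per window, so counts and percentages cannot be compared. These are matches of letters only and say nothing of binding.

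Of the collagen receptor chains, Itga11 was lower in Capn6-Ko by the largest difference of any integrin measured on both arrays. Itga11, the α11 chain of a collagen receptor known from fibroblasts, had a signal of 1177 in Capn6-Ko and 1805 in Capn6-Wt. The difference was -0.60 ± 0.080, or 1.51-fold lower, and 1.13% of all measured genes lay at or below it. Itga1, the α1 chain of another collagen receptor, was dim, and its 2 probes disagreed. One gave 35.6 in Capn6-Ko and 51.3 in Capn6-Wt (-0.51), the other 28.2 and 26.8 (0.091), for a mean of -0.21 ± 0.17. Itga2, the α chain of the platelet collagen receptor, was not well above background, with signals of 4.32 in Capn6-Ko and 7.14 in Capn6-Wt.

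The 2 measured laminin receptor chains had opposite signs. Itga6, a laminin receptor chain of many epithelial and blood cells, had a signal of 13377 in Capn6-Ko and 11056 in Capn6-Wt. Its difference of 0.29 ± 0.081 was the largest positive one among the integrins measured on both arrays and just short of the called size. Itga7, the laminin receptor chain of muscle, had 40.3 in Capn6-Ko and 55.7 in Capn6-Wt, a difference of -0.45 ± 0.22 read from 1 dim spot per array. Itga3 was not well above background on either array, at 4.36 in Capn6-Ko and 16.6 in Capn6-Wt, so no fold is given.

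The list of fibronectin and RGD receptors, on which Itga9 was also placed, was level or slightly higher in Capn6-Ko, with a median of 0.093 over 4 measured genes. Itgav, the αV chain of vitronectin and fibronectin receptors, was higher with both probes, at 1074.5 in Capn6-Ko against 950.4 in Capn6-Wt and 598 against 553. Its mean difference was 0.16 ± 0.064, beyond 2 SD of the spot error. Itga5, the α chain of the classical fibronectin receptor, had 911 in Capn6-Ko and 825 in Capn6-Wt (0.16 ± 0.088). Itgb5, the αV partner in vitronectin binding, had 39158 in Capn6-Ko and 38974 in Capn6-Wt (0.025 ± 0.083), and Itga9, a receptor chain for tenascin and VCAM-1, had 177 and 184 (-0.032 ± 0.13). Both were within the spot error.

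Some chains of this group were barely detected. Itga8, a nephronectin receptor chain, was well above background in Capn6-Ko only, with signals of 20.3 in Capn6-Ko and 10.4 in Capn6-Wt. The lowest such signal of any probe on the Capn6-Wt array was 16.6, and set against it, Itga8 was 1.24-fold higher in Capn6-Ko. That fold rests on 1 spot per array and carries no spot error, and 16.6 is not a limit measured for this probe. Itgb8 (3.06 in Capn6-Ko, 3.56 in Capn6-Wt) and both probes of Itgb6 (4.28 in Capn6-Ko and 3.96 in Capn6-Wt, 3.52 and 4.11) were not well above background.

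The shared β1 chain Itgb1 differed little between the pools. Its 2 probes gave 3815 in Capn6-Ko against 4035 in Capn6-Wt and 637 against 701, a mean of -0.092 ± 0.061. Subtracting the Itgb1 difference from that of a partner gave -0.51 for Itga11 and -0.35 for Itga7. It gave 0.38 for Itga6, 0.27 for Itga4 and 0.26 for Itgav, and the Itga4 value takes in its dim probe. Among the β2 pairs the α chains lay between 0.022 and 0.12 above Itgb2. Transcript levels do not give the amount of the assembled receptors.

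**Figure D2:**
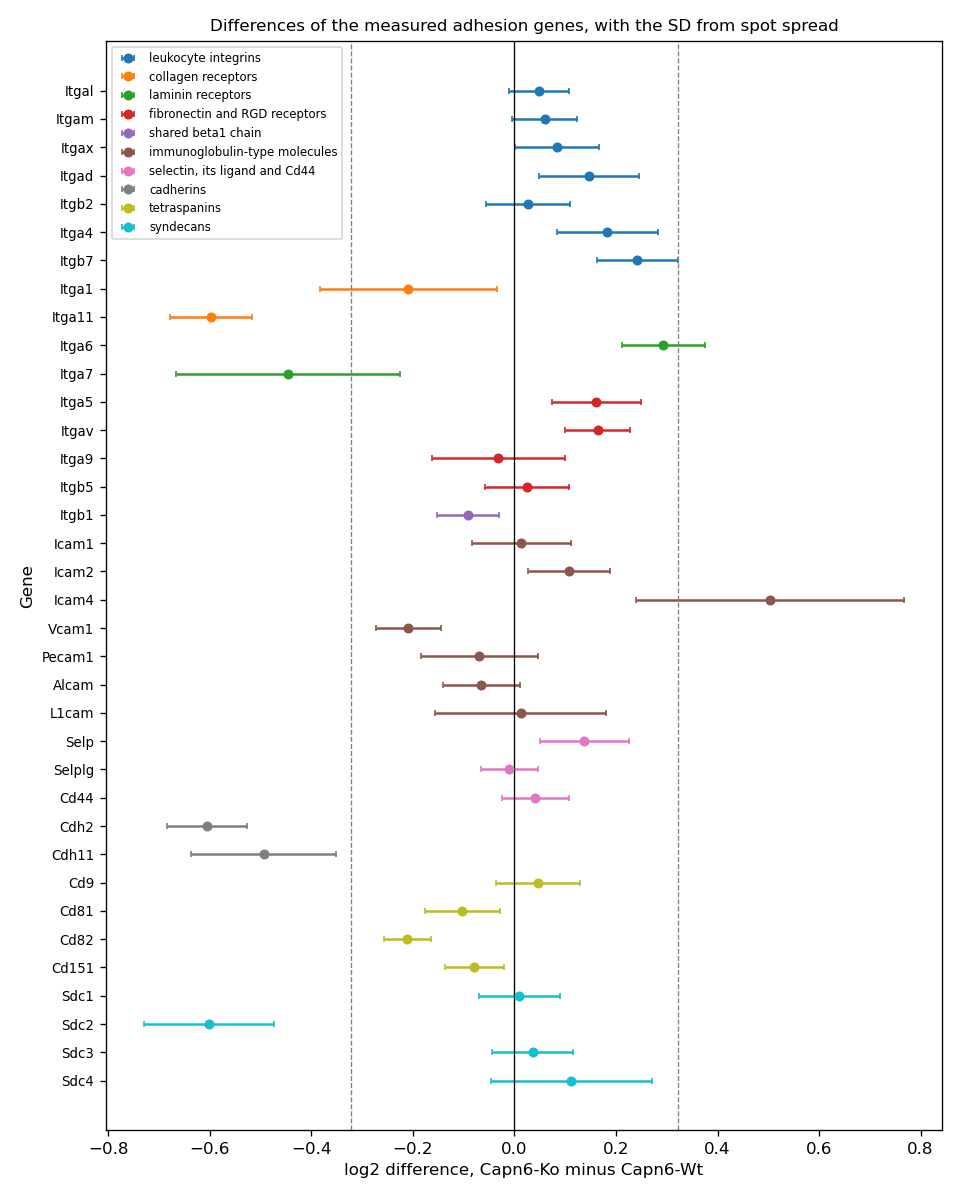
Log2 difference, Capn6-Ko minus Capn6-Wt, of the 36 measured adhesion genes, 1 row a gene, coloured by role; bars are 1 SD from spot spread and dashed lines mark the called size. The 7 leukocyte integrins lie between 0.026 and 0.24, while Itga11, Cdh2 and Sdc2 lie near -0.60.

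The 2 measured cadherins were both lower in Capn6-Ko, with a median of -0.55. Cdh2, N-cadherin of neural, muscle and mesenchymal cells, gave 272 in Capn6-Ko against 412 in Capn6-Wt with one probe and 197 against 309 with the other. Both probes were lower by similar amounts, and the mean was -0.61 ± 0.080, or 1.52-fold. Cdh11, a cadherin of mesenchymal cells and osteoblasts, gave 124 in Capn6-Ko against 173 in Capn6-Wt and 28.7 against 41.7, a mean of -0.49 ± 0.14. The epithelial Cdh1 was not well above background on any of its 9 spots in Capn6-Ko or 10 in Capn6-Wt (medians of 5.92 and 5.85), nor was the endothelial Cdh5 (7.87 in Capn6-Ko and 13.6 in Capn6-Wt).

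Of 4 syndecans, 1 differed by more than its spot error. Sdc2, the syndecan of mesenchymal cells, had a signal of 155 in Capn6-Ko and 239 in Capn6-Wt, a difference of -0.60 ± 0.13, or 1.52-fold lower. Sdc1, known from plasma and epithelial cells, had 1406 in Capn6-Ko and 1415 in Capn6-Wt (0.0092 ± 0.080). Sdc3 had 3274 in Capn6-Ko and 3235 in Capn6-Wt (0.036 ± 0.080), and Sdc4, found at focal adhesions, had 107 and 101 (0.11 ± 0.16).

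Tetraspanins were mostly slightly lower in Capn6-Ko, with a median of -0.091 over 4 genes. Cd82 was lower with all 3 probes, at 28664 in Capn6-Ko against 32330.2 in Capn6-Wt, 3196 against 3741, and 1913 against 2333. Its mean of -0.21 ± 0.047 was beyond 2 SD of the spot error. Cd81, a partner of β1 integrins, had 4645 in Capn6-Ko and 5051 in Capn6-Wt (-0.10 ± 0.074). Cd151, which binds laminin receptors, gave 9708 in Capn6-Ko against 10243 in Capn6-Wt and 1861 against 2018 (mean -0.079 ± 0.058). Cd9, which limits macrophage fusion, had 51195 in Capn6-Ko and 50208 in Capn6-Wt (0.046 ± 0.083), within the spot error.

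Among the immunoglobulin-type molecules the ligands of leukocyte integrins differed in sign and size. Icam4, which binds β2 integrins and is best known from human red cells, had a signal of 34.0 in Capn6-Ko and 24.3 in Capn6-Wt. The difference of 0.50 ± 0.26 was 1.42-fold and rests on 1 dim spot per array. Icam1, the main LFA-1 ligand and an inflammatory response gene, lies next to Icam4 in the genome and had 572 in Capn6-Ko and 574 in Capn6-Wt (0.013 ± 0.098). Icam2 had 1545 in Capn6-Ko and 1452 in Capn6-Wt (0.11 ± 0.081).

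Vcam1, the ligand of VLA-4, was lower in Capn6-Ko with both probes, at 10359.6 against 11792 in Capn6-Wt and 453 against 546. The mean was -0.21 ± 0.064, opposite in sign to that of its receptor chain Itga4. Alcam, a CD6 ligand, had 6480.03 in Capn6-Ko and 6866 in Capn6-Wt (-0.065 ± 0.077), and Pecam1, a molecule of endothelial junctions and leukocytes, had 93.8 and 99.7 (-0.069 ± 0.11). L1cam, a neural adhesion molecule, had 83.8 in Capn6-Ko and 84.2 in Capn6-Wt (0.012 ± 0.17). These 3 genes were within their spot error.

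The selectin genes and Cd44 were near level. Selp, P-selectin of platelets and endothelium, was read by repeated spots, 10 in Capn6-Ko with a lowest, median and highest signal of 18.7, 23.9 and 32.4, and 8 in Capn6-Wt with 19.8, 22.4 and 24.6. The spots of the 2 arrays overlapped, and the difference was 0.14 ± 0.088. Selplg, the P-selectin ligand of leukocytes, gave 5400.15 in Capn6-Ko against 5352 in Capn6-Wt and 1731 against 1816 (mean -0.010 ± 0.056). Cd44, the hyaluronan receptor, was read by 4 probes whose differences ran from -0.034 to 0.14, with a mean of 0.041 ± 0.065.

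**Figure D3:**
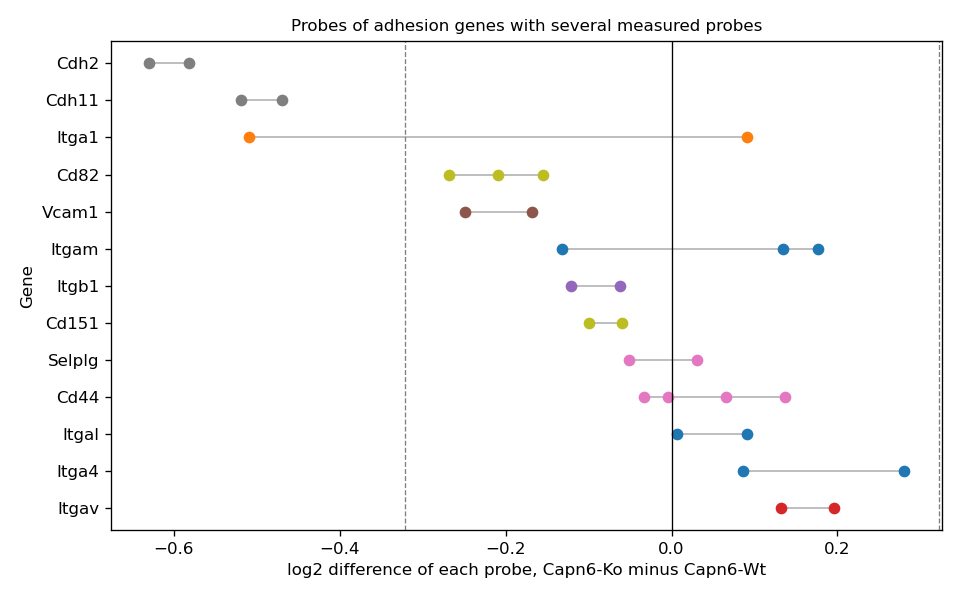
Log2 difference of each measured probe, Capn6-Ko minus Capn6-Wt, for the 13 adhesion genes with more than 1 measured probe; points are probes, coloured by role, and dashed lines mark the called size. The probes of Cdh2 and Cdh11 lie within 0.050 of each other, while those of Itga1 are 0.60 apart.

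In all 13 members had several measured probes, and the probes agreed in sign in 9 of them. Over all genes with several measured probes the share was 54.2%. The 4 members whose probes disagreed were Itga1, Itgam, Selplg and Cd44. The other 23 measured members rest on 1 probe. By spot error alone, 3 members were higher by over 2 SD (Itga6, Itgb7 and Itgav), beside 5.46% of all genes, and 7 lower (the 5 genes named above with Vcam1 and Cd82), beside 7.02%. In total 15 members lay within 1 SD.

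Large differences were commoner among dim genes, and 4 of the 5 lower members were dim. With all measured genes split into 5 equal bins by mean level, 17.9% of the 2575 genes in the dimmest bin were lower in Capn6-Ko by the called size, and 8% higher. Cdh11, Itga7 and Icam4 lay in that bin. In bin 2, with Cdh2 and Sdc2, the share lower was 6.21%, and in bin 4, with Itga11, 1.05%. Of the 6 members past the called size, Itga11 and Cdh2 were the 2 that also passed it after another background correction (normexp). After it Sdc2, at -0.3212, fell just short of the unrounded size of 0.3219. Cdh11 was then at -0.18, Itga7 at -0.14 and Icam4 at 0.092.

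**Figure D4:**
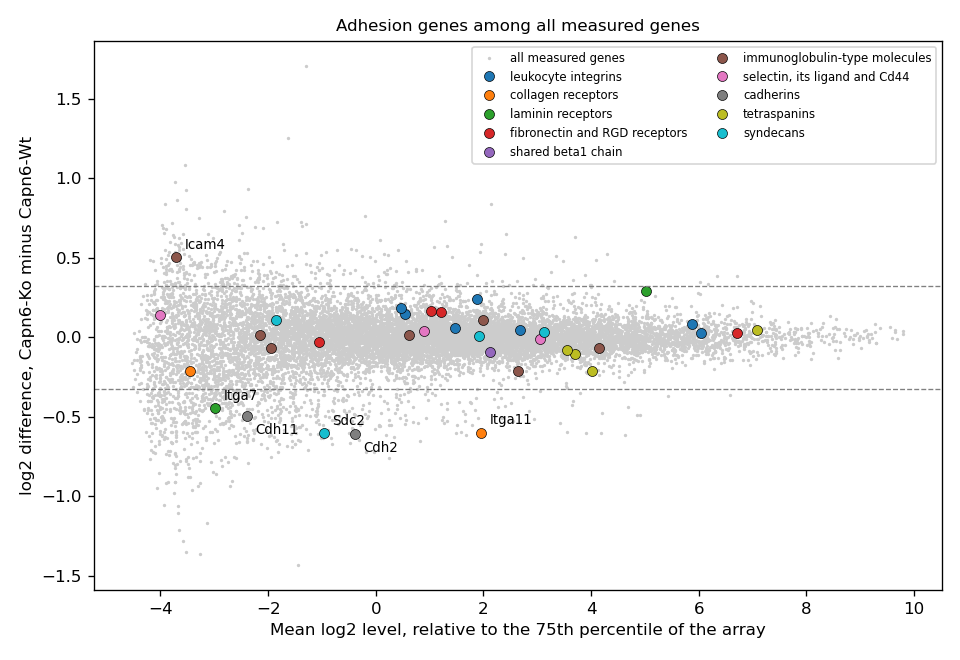
Log2 difference, Capn6-Ko minus Capn6-Wt, against the mean log2 level over the 75th percentile of its array, for all 12875 measured genes (grey) and the 36 measured adhesion genes (coloured by role); dashed lines mark the called size. The grey cloud widens to the left, where Icam4, Itga7 and Cdh11 lie, and Itga11 lies at its lower edge further to the right.

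Many matrix ligands of these receptors were lower in Capn6-Ko. Of 30 listed ligand genes 23 were measured, and 15 of them (65.2%) were lower by the called size, beside 5.53% of all measured genes. None of the 23 was higher by that size, beside 2.64%, and the median was -0.385. Col1a2, a chain of type I collagen and ligand of the Itga11 receptor, had signals of 5485 in Capn6-Ko and 8413 in Capn6-Wt (-0.60 ± 0.077). Col1a1 had 1552 in Capn6-Ko and 2124 in Capn6-Wt (-0.43 ± 0.082). The laminin chain Lamb1 had 778 in Capn6-Ko and 1135 in Capn6-Wt (-0.53 ± 0.085), and Thbs1, a matricellular ligand, had 1485 and 1964 (-0.38 ± 0.082).

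Other ligands are given for the receptors they bind and were chosen after their values were seen. Fibronectin itself, Fn1, had 4593 in Capn6-Ko and 5938 in Capn6-Wt (-0.35 ± 0.075), beside small positive values of its receptor chains Itga5 and Itgav. Spp1, osteopontin of macrophages and bone, went the other way, with 26587 in Capn6-Ko and 22262 in Capn6-Wt (0.27 ± 0.083). Mfge8, an RGD protein that bridges apoptotic cells to αV integrins, was level, at 287969 and 292016 (-0.0020 ± 0.083).

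Of 36 listed activation and adaptor genes, which link integrins to actin, 35 were measured. By the called size 5 of them (14.3%) were lower, beside 5.53% of all measured genes, and 0 higher, beside 2.64%, with a median of -0.0082. Among those above the median level, the largest differences given here were those of Vav3 (793 in Capn6-Ko, 702 in Capn6-Wt, 0.19 ± 0.091), Apbb1ip (5138 and 4687, 0.15 ± 0.074) and Fgr (853 and 779, 0.15 ± 0.089). They encode a Rac exchange factor, the Rap1 effector RIAM and a Src family kinase of myeloid cells.

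The 5 lower adaptors, named after their values were seen, were Fermt2, Tln2, Bcar1, Parva and Tns2. All lay below the median level of all measured genes. The relatives set beside them here, Fermt3, Tln1 and Parvg, lay above it and were also chosen after their values were seen. Fermt2, kindlin-2 of non-haematopoietic cells, had 109 in Capn6-Ko and 173 in Capn6-Wt (-0.65 ± 0.10), whereas Fermt3, kindlin-3 of blood cells, had 4099.6 and 4021 (0.046 ± 0.076). Tln2, a talin of muscle and brain, had 34.2 in Capn6-Ko and 50.8 in Capn6-Wt (-0.55 ± 0.23), whereas Tln1, the widely expressed talin, had 5519.9 and 5615 (-0.0065 ± 0.064). Parva had 91.2 in Capn6-Ko and 131 in Capn6-Wt (-0.51 ± 0.12), whereas Parvg, the parvin of blood cells, had 2096 and 2235 (-0.074 ± 0.084). The scaffold Bcar1 differed by -0.55 ± 0.11 and Tns2 by -0.48 ± 0.25. The remaining measured adaptors below the median level did not reach the called size. They were Ptk2 (-0.22 ± 0.14), Vcl (-0.042 ± 0.12), Lyn (-0.016 ± 0.098), Lims2 (-0.0082 ± 0.16), Parvb (0.045 ± 0.11), Pxn (0.052 ± 0.14) and Rap1a (0.15 ± 0.17).

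Of 14 measured junction and adhesion receptors 3 (21.4%) were lower by the called size, beside 5.53% of all measured genes. These 3 lay below the median level and were named after their values were seen: Ncam1 (72.2 in Capn6-Ko, 118 in Capn6-Wt, -0.70 ± 0.14), Jam3 (-0.53 ± 0.16) and Jam2 (-0.43 ± 0.26). Above the median level the largest differences were those of Cd99l2 (0.061), Cadm1 (-0.060), Sirpa (0.060) and Glg1 (0.046), within their spot error. Among 5 measured cadherin partners 0 reached the called size. Ctnnd1 (0.10 ± 0.076), Ctnna1 (0.021 ± 0.083) and Ctnnb1 (0.00082 ± 0.059), catenins of cadherin complexes, were level or nearly so beside the lower Cdh2. Pkp4 (-0.21 ± 0.10) and Pkp2 (-0.16 ± 0.13) lay below the median level, were lower and were named after their values were seen. Among 18 further tetraspanins 1 was higher by the called size (Tspan33, 0.40 ± 0.12), beside 2.64% of all measured genes. Tspan6 (-0.55 ± 0.13) was the 1 lower, beside 5.53%. Tspan31 (0.12), Cd37 (0.12), Tspan7 (0.10) and Tspan4 (-0.078) led those above the median level.

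**Figure D5:**
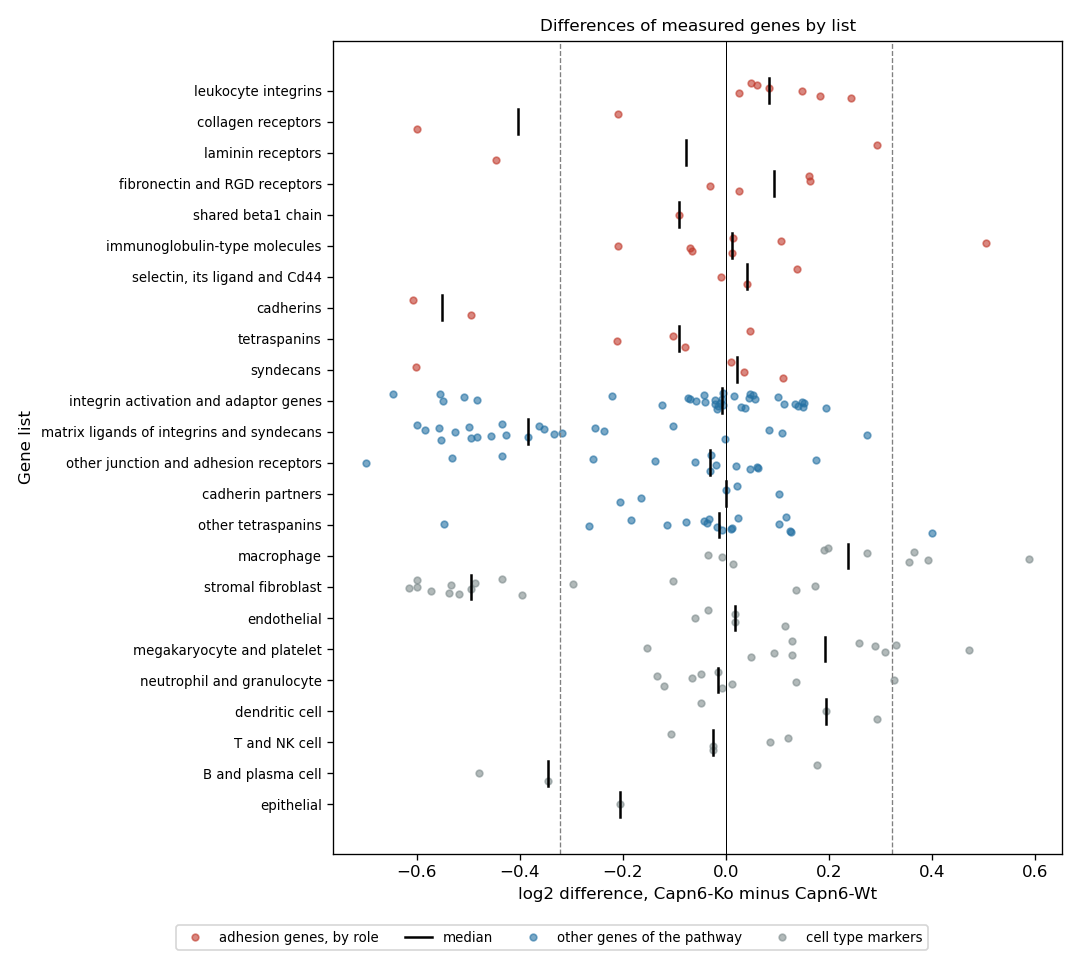
Log2 difference, Capn6-Ko minus Capn6-Wt, of each measured gene by list: adhesion genes by role, other genes of the pathway and cell type markers; black bars are medians and dashed lines mark the called size. The matrix ligands (median -0.385) and stromal fibroblast markers (median -0.495) lie to the left, and macrophage markers (median 0.24) to the right.

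Stromal fibroblast markers were lower in Capn6-Ko beside the lower adhesion genes. Of 17 markers 15 were measured and 11 (73.3%) were lower by the called size, beside 5.53% of all measured genes. Their median was -0.495, and 5 of the 15 lay above the median level of all measured genes. Col1a1, Col1a2, Col3a1 and Postn stand on both this list and that of the matrix ligands. The summed level of all 15 measured stromal markers, in units of the 75th percentile of each array, was 65.5 in Capn6-Ko and 97.3 in Capn6-Wt. Tagln (7457 in Capn6-Ko, 11560 in Capn6-Wt, -0.61 ± 0.079), Acta2 (4520.3 and 6937, -0.60 ± 0.024), Col1a2 and Sparc (3314 and 4868, -0.54 ± 0.062) led those above the median level. Thy1 (0.17 ± 0.26) and Fap (0.14 ± 0.17) were not lower, and Lum was not well above background on either array. The part of stromal cells in the lower adhesion genes was not tested, and fewer cells of a type and less RNA per cell cannot be told apart in pooled RNA.

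Macrophage markers were higher beside the leukocyte integrins. Of 10 measured markers 8 lay above 0, among them 4 past the called size, beside 47.8% and 2.64% of all measured genes. Their median was 0.24 and their summed level 614 in Capn6-Ko and 592 in Capn6-Wt. The largest differences were those of Cx3cr1 (1760.2 in Capn6-Ko, 1186 in Capn6-Wt, 0.59 ± 0.063), C5ar1 (0.39 ± 0.080), Cd14 (0.36 ± 0.074) and Aif1 (0.36 ± 0.078). All 10 markers of megakaryocytes and platelets were measured and 9 lay above 0, 2 past the called size. The median was 0.19 and the summed level 42.6 in Capn6-Ko and 38.4 in Capn6-Wt. Ppbp was at 0.26 ± 0.084, Pf4 at 0.13 ± 0.079 and Treml1 at 0.092 ± 0.083. Platelets also carry Itga6 and Selp, and the part of such cells in those values was not tested.

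Endothelial markers were in part well detected and near level between the pools, while most epithelial markers were not well above background. Of 11 endothelial markers 5 were measured, with a median of 0.017 and a summed level of 10.5 in Capn6-Ko and 10.6 in Capn6-Wt. Tek, Cldn5, Emcn, Tie1, Sox17 and Erg were not well above background on either array, while Kdr (-0.034 ± 0.043) and Flt1 (0.018 ± 0.082) were level. Of 6 epithelial markers 1 was measured, Krt14, at -0.20 ± 0.24, with a level of 0.0938 in Capn6-Ko and 0.108 in Capn6-Wt. Epcam, Krt8, Krt18 and Krt19 were not well above background.

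Markers of other marrow cells that carry leukocyte integrins were mixed. Neutrophil and granulocyte markers had a median of -0.016 over 9 genes and a summed level of 25.3 in Capn6-Ko and 25.2 in Capn6-Wt, with 1 gene higher by the called size (Ltf, 0.33 ± 0.16) and 0 lower. Of those above the median level, Elane stood at 0.14, S100a9 at -0.049, S100a8 at -0.016 and Mmp8 at -0.0071. The median was 0.19 over 3 dendritic cell markers (summed level 163 in Capn6-Ko, 168 in Capn6-Wt), among them Batf3 at 0.29 ± 0.098 and Siglech at -0.049, and 0 passed the called size. It was -0.024 over 5 T and NK cell markers (2.24 in Capn6-Ko, 2.31 in Capn6-Wt), with 0 past the called size, and -0.35 over 3 B and plasma cell markers (2.02 in Capn6-Ko, 2.35 in Capn6-Wt). Of these 3, Ms4a1 (-0.48 ± 0.26) and Jchain (-0.35 ± 0.098) were lower by the called size. Over all measured genes, 5.53% were lower and 2.64% higher by that size. Ltf, Batf3, Ms4a1 and Jchain were named after their values were seen. The part of any of these cells in the integrin values was not tested.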

How the data were processed

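The RNA was hybridised to 1 Agilent mouse array per group, labelled with Cy3. Per the file headers, the deposited scanner files give a linear intensity for each spot, and the software was Agilent Feature Extraction 10.10.1.1. The processed signal used here is background-subtracted within each array and not scaled between arrays. The headers give the 2 arrays 1 slide and 1 scan, and name mm9 as the build of the array design. The authors' deposited value table, also an intensity, equals that signal multiplied by 1 factor on each array (2.42 for Capn6-Ko, 2.39 for Capn6-Wt), with no centring, a column median of 50.7 for Capn6-Ko and 53.0 for Capn6-Wt, and no direction. The sources used here do not say how these factors were chosen, but after them the 75th percentile was 900.7 on both arrays. That equals the scaling used here up to a constant.

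Control spots were left out, as were spots marked as outliers by the scanner software (136 in Capn6-Ko, 161 in Capn6-Wt). No spot was saturated. Each array's signals were divided by their own 75th percentile and put on the log2 scale, spots of a probe were averaged, and a probe counted as measured where over 50% of its spots on each array were well above background. RefSeq accessions named 27232 of 55678 probes through a gene table of GRCm38.p6, used for names and for gene order. A gene is the mean of its measured probes. The spot error comes from 264 probes with at least 5 measured spots per array, in 8 bins of level.

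With 1 array per group no test was run. The called size is a log2 difference of 0.32, with 1.5-fold and 2 SD of the spot error beside it. The members, the lists and the called size were chosen with earlier results of these data known, and 2 SD after the values were seen. Every measured member is named. Of each other list, the 4 genes of largest difference among those above the median level of all measured genes are named, fewer where fewer exist. The value of 1 gene that this rule names is not reported here. The alternatives were another background correction, other scalings, other filters on dim probes, the brightest probe of a gene, outlier spots kept, and the 1.5-fold size. Precision is limited by there being 2 arrays. Software was limma 3.58.1 (R 4.3.3) for normexp, and pandas 2.3.3 and numpy 2.4.6 (Python 3.11.15) for all else. The calculation was tested on simulated data.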

Additional observations from a re-analysis of the deposited data

How the results depend on the processing

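With 1 array per group, leaving out a replicate was not possible. No paired analysis was possible because each group has 1 sample. The planned normexp correction on the mean spot signal was not run, and the median spot signal was used in its place, an alternative added after seeing the data. Under the 8 further settings the 7 leukocyte integrins were higher in Capn6-Ko and Itga11 and Cdh2 lower by the called size each time (Itga11 from -0.602 to -0.533, Cdh2 from -0.606 to -0.451). The authors' value table, no filter on dim probes and outlier spots kept left these genes almost unchanged (Itga11 -0.598, Cdh2 -0.606). For these genes they were no separate check. Every setting reads the same spots of 1 array per group, so the settings are not repeats.

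The number of members lower by the called size, 5 of 36 in the main setting, was 2 of 36 after normexp and 2 of 26 with probes above the median level. It was 8 of 43 with no filter on dim probes and 3 of 36 at 1.5-fold. Over all genes the number lower was 712 of 12875 in the main setting, 196 of 12875 after normexp and 109 of 8410 with probes above the median level. It was 2590 of 20660 with no filter and 162 of 12875 at 1.5-fold. The number of members higher, 1 in the main setting, was 0 after normexp, 0 with probes above the median level, 2 with the median centre, 2 with no filter and 0 at 1.5-fold. Of the same totals of all genes, the number higher was 340 in the main setting, 81 after normexp and 73 with probes above the median level. It was 1667 with no filter and 43 at 1.5-fold. After normexp, whose offset of 50 shrinks dim differences, the cadherin median was -0.318 and the laminin receptor median 0.0715, against -0.0766 before. The median centre, which moved the median of all genes from -0.0056 to 0.059, changed the all-gene counts from 340 higher and 712 lower to 558 and 535, and gave 0.158 for fibronectin receptors, 0.149 for leukocyte integrins, 0.106 for the selectin group, -0.0270 for Itgb1 and -0.0261 for tetraspanins. With no filter the medians were -0.598 for collagen receptors, 0.0250 for fibronectin receptors and -0.446 for laminin receptors. With probes above the median level they were -0.598, 0.161 and 0.293 for the same groups and -0.0144 for the selectin group, and with the brightest probe -0.554 for collagen receptors.

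Of the pathway lists, matrix ligands lower by the called size numbered 15 of 23, and 8 of 12 with probes above the median level. They numbered 1 of 23 at 1.5-fold, and 1 of 23 was higher under the median centre. Adaptors lower numbered 5 of 35, and 3 of 35 after normexp, 0 of 26 with probes above the median level and 1 of 35 at 1.5-fold. Without a filter 2 of 36 adaptors were higher. Junction receptors lower numbered 3 of 14, and 1 of 14 after normexp, 1 of 9 with probes above the median level and 1 of 14 at 1.5-fold. Without a filter 5 of 21 junction receptors were lower and 1 of 21 higher. Of 18 further tetraspanins 1 was higher and 1 lower, against 0 and 0 at 1.5-fold. With probes above the median level 0 and 0 of 12 were so, and without a filter 2 and 3 of 20. Cadherin partners lower numbered 0 of 5, and 2 of 7 without a filter. Under at least 1 setting the sign of Cd44, Itga9, Itgb5, Sdc1 and Selplg turned. The causes were not tested, except that fewer genes enter with probes above the median level and more without a filter. Signal close to background limits what Icam4, Itga7, Cdh11 and Itga1 can show.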

Other observations

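Members that lie next to each other in the genome, in the gene order of GRCm38.p6, did not always share a sign. Itgam, Itgax and Itgad on chromosome 7 follow one another with no protein-coding gene between them and stood at 0.059, 0.084 and 0.15. On chromosome 9 Icam1 (0.013) and Icam4 (0.50) are direct neighbours. On chromosome 11 Icam2 (0.11) and Pecam1 (-0.069) have 2 protein-coding genes between them. Itga1 on chromosome 13 and Cdh11 on chromosome 8 each lie next to a member that was not well above background, Itga2 and Cdh5, so these pairs could not be compared.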
